A study of Rattus norvegicus with 6 samples.

Results

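The nuclear genes of the mitochondrial respiratory chain were compared between control and ShSuz12 IEC-6 cells, a non-tumorigenic rat line derived from small intestinal crypts. A probe set belonged to the chain when its only annotated symbol began with Nduf, Uqcr, Sdh followed by a letter from a to d, Cox4 to Cox8 or Atp5, or was Cyc1. This gave 102 probe sets for 91 genes, of 31042 probe sets tested and 14217 genes named by 1 symbol. Complex I held 44 probe sets (40 genes), complex II 10 (8 genes), complex III 9 (8 genes), complex IV 19 (19 genes) and complex V 20 (16 genes). Because the symbols decide, 12 probe sets of assembly factors (10 genes, Ndufaf and Sdhaf) were members beside 84 probe sets of subunits (77 genes) and 6 probe sets of a paralog, a pseudogene, a supercomplex factor and the ATP synthase inhibitor. Another 7 probe sets carried a member's symbol together with a second symbol and were left out.

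Control cells had been infected with a lentivirus that encodes a scrambled hairpin, and ShSuz12 cells with a lentivirus that encodes a short hairpin RNA against Suz12, a subunit of Polycomb repressive complex 2 that methylates H3K27. Both groups were selected with puromycin, were grown in DMEM with 5% serum, and are each 1 infected population of 1 cell line, with an infection efficiency estimated at 25%. RNA of 3 independent experiments for each group was measured on 6 Affymetrix rat arrays. Values are log2 RMA values, that is, 1 summarized hybridization signal for each probe set and array, and a difference of 1 is a 2-fold change.

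The targeted gene matched the labels: Suz12 stood at 8.45, 8.55 and 8.77 in control and at 5.82, 5.77 and 5.91 in ShSuz12, and fell by 2.76 on the log2 scale. Array medians were 6.15 to 6.17 in control and 6.26 to 6.27 in ShSuz12, a difference of 0.10, and correlations between arrays were 0.997 to 0.998 within and 0.979 to 0.980 between groups. The identity of the line was checked on marker lists. As a background for the calls on the lists below, 19.5% of all probe sets tested were lower in ShSuz12 and 14.8% higher. Of 12 intestinal epithelial markers 9 lay below the 50th percentile of the control arrays, while Cdh1 (E-cadherin) had a mean control value of 12.58. In ShSuz12, 2 of the 12 rose (Cdx2 by 1.56, Krt19 by 1.19) and 2 fell (Cdh1 by 0.76, Krt8 by 0.41). Mean control values were 5.49 for Cdx2, 4.57 for Krt19 and 9.78 for Krt8, so the rises were at dim probe sets. Of 12 fibroblast and smooth muscle markers 6 rose, among them Lum (2.46) and Col1a2 (2.34), and 2 fell (Acta2 by 0.66, Tagln by 0.35). The median level of that list was 7.38 to 7.50 in control and 8.36 to 8.52 in ShSuz12. Markers of leukocytes (7 of 8 below the 50th percentile in control, 4 lower, and 1 to 2 lower without any 1 array), endothelium (5 of 5 below, Kdr higher) and muscle fibres (7 of 8 below, Myh1 and Tnnt3 higher) were mostly low. The muscle fibre marker above the 50th percentile was Myh1, with a mean control value of 9.92. All 23 measured genes of a list for S phase and mitosis fell, with a median of -0.41, and the median level of that list was 10.25 to 10.47 in control and 9.78 to 9.85 in ShSuz12. The part of these shifts in the results on the chain was not tested, and in such bulk RNA fewer cells of a type and less RNA per cell cannot be told apart.

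The chain passes electrons from NADH through complex I, and from succinate through complex II, to ubiquinone, complex III, cytochrome c and complex IV, which reduces oxygen. Complexes I, III and IV pump protons across the inner membrane, and complex V, the ATP synthase, uses the gradient to make ATP. Complex I is L-shaped: its peripheral arm in the matrix carries the flavin and the iron-sulfur clusters, and its membrane arm carries the proton channels. Except for complex II, each complex also needs subunits that are encoded in the mitochondrial genome, so nuclear and mitochondrial transcripts have to be made side by side. Many nuclear genes of the chain have promoters with sites for NRF1, for ETS factors such as GABP and for YY1. In the intestine, oxidative phosphorylation is known to serve stem cells and absorptive cells of the epithelium.

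Promoter sequences were available for 82 of the 91 genes in RefSeq (build GRCr8), from 250 bases before to 50 bases after the annotated start. Of these windows, 8 are shown because the results below turn on their genes. They belong to 4 genes that fell (Ndufs7, Ndufs8, Sdhb and Ndufaf8), to 3 that rose (Ndufs4, Sdhaf3 and Cox6a2) and to Cox4i1, a bright complex IV subunit that was not called. Capitals mark the letters of a searched motif, on either strand: CGCANGCG for NRF1, CCGGAAG for ETS factors, AANATGGCG for YY1 and TCAAGGTCA for estrogen-related receptors (ERR). The windows are Ndufs7 at chr7:10110449-10110748 (minus strand), Ndufs8 at chr1:210573649-210573948 (minus strand), Sdhb at chr5:158547684-158547983 (plus strand) and Ndufaf8 at chr10:105879658-105879957 (plus strand). The others are Ndufs4 at chr2:47794865-47795164 (minus strand), Sdhaf3 at chr4:36066713-36067012 (plus strand), Cox6a2 at chr1:192219667-192219966 (minus strand) and Cox4i1 at chr19:65630133-65630432 (plus strand).
Ndufs7: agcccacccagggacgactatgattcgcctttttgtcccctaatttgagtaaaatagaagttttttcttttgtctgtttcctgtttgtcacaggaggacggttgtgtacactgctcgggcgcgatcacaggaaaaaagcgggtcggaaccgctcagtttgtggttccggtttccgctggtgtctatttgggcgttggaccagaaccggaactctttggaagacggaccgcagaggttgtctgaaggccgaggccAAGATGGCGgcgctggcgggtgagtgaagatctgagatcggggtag
Ndufs8: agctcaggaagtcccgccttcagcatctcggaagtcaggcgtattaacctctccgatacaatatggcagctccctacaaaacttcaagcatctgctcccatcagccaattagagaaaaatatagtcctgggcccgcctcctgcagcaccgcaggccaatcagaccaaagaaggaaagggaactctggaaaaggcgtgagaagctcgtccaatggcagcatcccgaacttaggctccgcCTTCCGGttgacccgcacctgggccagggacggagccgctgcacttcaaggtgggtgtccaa
Sdhb: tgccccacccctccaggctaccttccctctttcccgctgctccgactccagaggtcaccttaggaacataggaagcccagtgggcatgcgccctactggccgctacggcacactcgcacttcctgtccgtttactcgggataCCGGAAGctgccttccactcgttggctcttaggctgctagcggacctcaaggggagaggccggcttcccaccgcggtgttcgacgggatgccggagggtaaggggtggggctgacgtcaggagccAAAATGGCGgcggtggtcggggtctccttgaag
Ndufaf8: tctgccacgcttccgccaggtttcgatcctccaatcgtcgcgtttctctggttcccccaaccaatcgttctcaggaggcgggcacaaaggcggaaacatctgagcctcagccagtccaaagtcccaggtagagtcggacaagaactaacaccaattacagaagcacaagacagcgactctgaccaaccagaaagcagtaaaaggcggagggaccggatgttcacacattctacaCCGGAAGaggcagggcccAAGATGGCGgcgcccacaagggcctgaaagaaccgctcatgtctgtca
Ndufs4: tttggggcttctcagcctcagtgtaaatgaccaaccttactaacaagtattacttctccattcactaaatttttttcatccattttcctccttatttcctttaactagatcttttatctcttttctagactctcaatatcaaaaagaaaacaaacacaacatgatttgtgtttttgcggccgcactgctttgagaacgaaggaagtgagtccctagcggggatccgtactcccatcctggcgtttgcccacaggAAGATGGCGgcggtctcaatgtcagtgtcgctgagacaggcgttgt
Sdhaf3: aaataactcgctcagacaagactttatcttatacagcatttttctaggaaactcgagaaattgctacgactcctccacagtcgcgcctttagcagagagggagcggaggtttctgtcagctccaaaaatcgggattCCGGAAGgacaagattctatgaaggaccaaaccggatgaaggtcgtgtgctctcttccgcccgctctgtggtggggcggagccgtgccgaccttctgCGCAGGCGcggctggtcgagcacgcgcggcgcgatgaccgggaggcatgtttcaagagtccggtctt
Cox6a2: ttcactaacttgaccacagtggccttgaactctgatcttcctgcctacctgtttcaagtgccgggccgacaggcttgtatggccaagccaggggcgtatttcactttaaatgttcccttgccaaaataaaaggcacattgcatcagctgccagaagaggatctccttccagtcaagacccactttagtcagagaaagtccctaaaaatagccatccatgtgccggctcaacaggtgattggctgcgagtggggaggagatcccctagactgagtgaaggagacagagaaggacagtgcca
Cox4i1: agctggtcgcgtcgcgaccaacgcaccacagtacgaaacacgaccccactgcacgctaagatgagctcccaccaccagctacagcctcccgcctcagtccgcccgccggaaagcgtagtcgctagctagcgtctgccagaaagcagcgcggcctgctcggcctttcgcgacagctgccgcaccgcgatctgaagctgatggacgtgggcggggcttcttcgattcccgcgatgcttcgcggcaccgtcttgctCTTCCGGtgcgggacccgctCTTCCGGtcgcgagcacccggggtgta

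Ndufs7 and Ndufs4, which moved in opposite directions, both hold the YY1 letters from base 5 after the start, and no match to the other 3 motifs. Sdhb and Ndufaf8 hold 1 ETS and 1 YY1 match each, Ndufs8 holds 1 ETS match, and Sdhaf3 holds 1 NRF1 and 1 ETS match. Cox4i1 holds 2 ETS matches. The Cox6a2 window has none of the 4 motifs and 5 CpG dinucleotides, against a median of 20 in the 82 windows.

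Over all members, the chain changed little and in few places. With limma and Benjamini-Hochberg adjustment over all probe sets, 20 of the 102 probe sets were lower in ShSuz12 and 4 were higher at an adjusted p under 0.05. Among all probe sets tested 19.5% were lower and 14.8% higher, so the share of lower calls in the chain (19.6%) was near that background and the share of higher calls (3.92%) was below it. At matched levels the shares of lower calls differed. Above the 90th percentile of the control arrays 14.3% of 70 members were lower, against 37.7% of all probe sets. Between the 50th and 90th percentiles it was 41.2% of 17 members against 30.4%, and below the 50th 20% of 15 members against 7.16%. These differences were not tested. The split moved with the scaling of the arrays, from 20 lower and 4 higher to 58 and 2 with the array median subtracted and to 13 and 9 after cyclic loess, and 2 of the rises were lost without ShSuz12 replicate 1 or 2. None of the 102 reached 2-fold, against 3.49% of all probe sets in either direction. The median log2 fold change was -0.07 in the chain and -0.05 over all probe sets. At matched levels the medians of the chain and of all probe sets were -0.06 and -0.10 above the 90th percentile. They were -0.15 and -0.08 between the 50th and 90th percentiles, and -0.18 and -0.03 below the 50th. No difference between these medians was tested. Single changes in the chain ranged from -0.42 for Ndufaf1 to 0.60 for Cox6a2.

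All 3 ShSuz12 arrays lay below all 3 control arrays in 51 probe sets of the chain and above them in 16. For all probe sets the corresponding shares were 28.1% and 19.4%. Above the 90th percentile of the control arrays 51.4% of 70 members lay below and 17.1% above. For all probe sets at that level the shares were 52.4% and 21.4%, so the share below was near that background. Between the 50th and 90th percentiles 64.7% of 17 members and 39.7% of all probe sets lay below. Under the 50th percentile 26.7% of 15 members and 14.1% of all did. These differences were not tested. A change within 0.2 in either direction was found for 80 of the 102 probe sets, and for 19389 of the 31042. The 95% confidence interval of the change stayed within 0.5 in either direction for 93.1% of the chain's probe sets and for 77.8% of all. Per array, the median level of the members was 10.87, 10.81 and 10.86 in control and 10.80, 10.76 and 10.74 in ShSuz12. These groups did not overlap, and their means differed by -0.08 with a pooled SD of 0.03. Most members lay above the 90th percentile, where the median change of all probe sets was -0.10.

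Most of the chain was bright, with 70 of 102 probe sets above the 90th percentile of the control arrays. Of these, 10 were lower, 1 was higher and 62 changed by less than 0.2. Among the 3095 probe sets of the whole array above that percentile, 1168 were lower, 400 were higher and 1715 changed by less than 0.2. The 15 members below the 50th percentile held 3 of the lower and 1 of the higher calls, and the 17 members in between held 7 and 2.

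**Figure D1:**
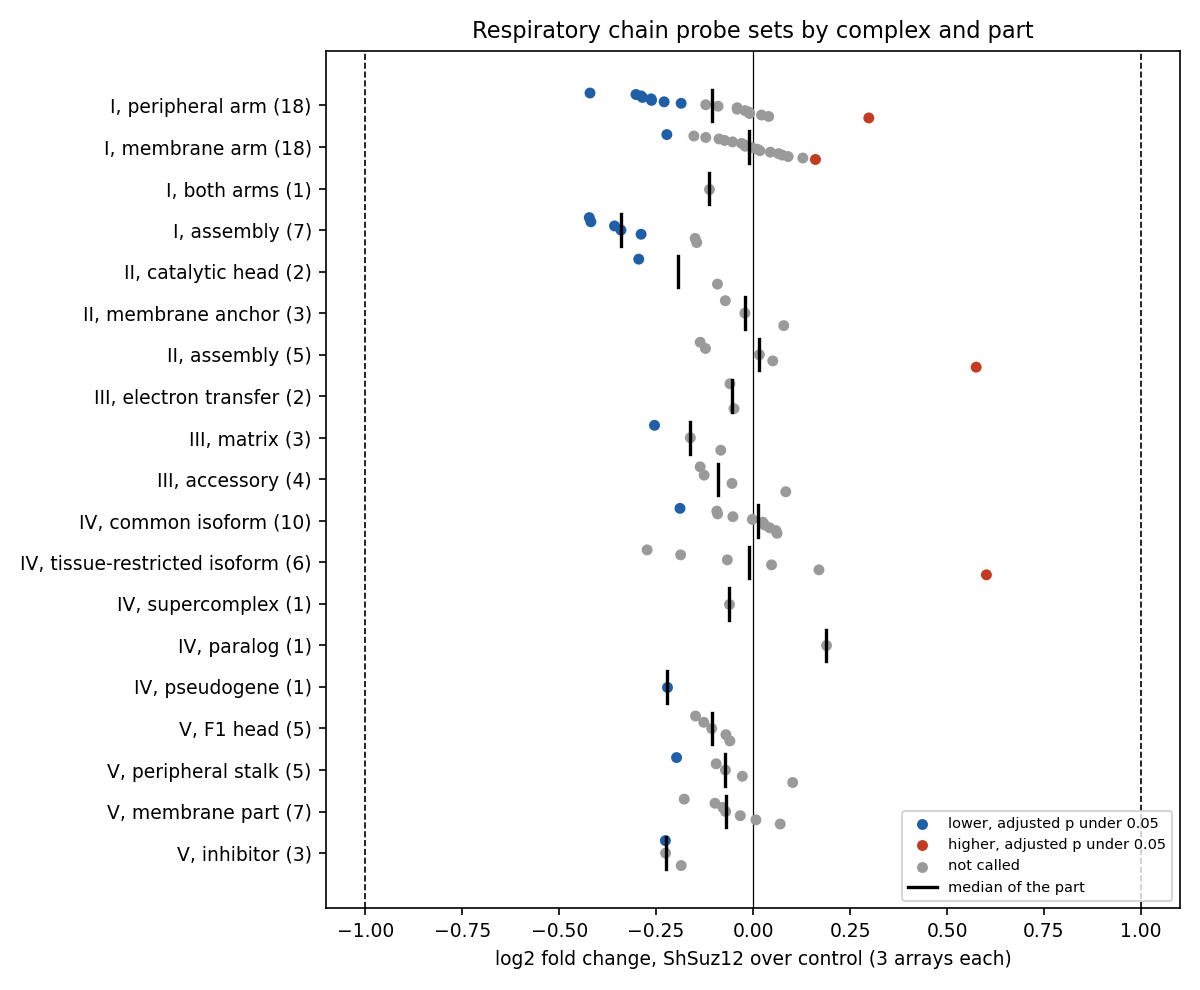
Log2 fold change, ShSuz12 over control, of each of the 102 probe sets (points) by complex and part, with the number of probe sets in parentheses, the median as a bar and dashed lines at 2-fold. All points lie inside the dashed lines, and 13 of the 20 lower calls stand in the peripheral arm (8 of 18) and the assembly factors (5 of 7) of complex I.

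Complex I held 14 of the 20 lower calls. In its peripheral arm 8 of 18 probe sets were lower and 1 was higher, with a median of -0.11, and in its membrane arm 1 of 18 was lower and 1 was higher, with a median of -0.01. Most of both arms was bright, with 13 and 17 probe sets above the 90th percentile, where 37.7% of all probe sets were lower and 12.9% higher. The share of lower calls in the peripheral arm (44.4%) was thus near that background and the share in the membrane arm (5.56%) below it. The difference between the arms was not tested. It depended on the scaling of the arrays: lower calls were 11 against 6 when the median of each array was subtracted and 6 against 0 after cyclic loess, where the median of the membrane arm turned to 0.07 and that of the peripheral arm to -0.02. Without any single array the peripheral arm had 7 to 8 lower calls and the membrane arm 1.

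Within the peripheral arm the core subunits that lead electrons from the flavin to ubiquinone divided by position. Ndufs3, Ndufs7 and Ndufs8 sit next to the ubiquinone site, and Ndufs7 and Ndufs8 carry the last iron-sulfur clusters before it. Ndufs3 had values of 10.23, 10.16 and 10.16 in control and of 9.87, 9.93 and 9.84 in ShSuz12, and fell by 0.30 (SE 0.05, adjusted p = 0.00336 from limma). Ndufs8 had 9.84, 9.75 and 9.76 in control and 9.49, 9.54 and 9.46 in ShSuz12, and fell by 0.29 (SE 0.05, adjusted p = 0.00435). Ndufs7 had 10.57, 10.58 and 10.49 in control and 10.31, 10.30 and 10.24 in ShSuz12, and fell by 0.26 (SE 0.05, adjusted p = 0.00601).

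The groups did not overlap for any of the 3, the linear signal of Ndufs3 fell by 18.9%, and all 3 were called under each of the 17 alternatives. The core subunits at the NADH end were not called. Ndufv1, which binds NADH and the flavin, had a difference of -0.09 (95% confidence interval -0.21 to 0.03, adjusted p = 0.225). Ndufv2, its partner with an iron-sulfur cluster, had -0.12 (adjusted p = 0.123), and Ndufs1, the largest subunit, had -0.04 (-0.17 to 0.09, adjusted p = 0.618). This split by position was noticed after the values were seen and was not tested.

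The accessory subunits of the arm, which surround and stabilise the core, went both ways. Ndufa2 had 10.65, 10.76 and 10.69 in control and 10.43, 10.43 and 10.38 in ShSuz12, and fell by 17.9% (adjusted p = 0.00430 from limma). Ndufa5 fell by 14.7% (adjusted p = 0.0100), a call that was lost after cyclic loess. Ndufv3 fell at both of its probe sets, by 0.26 (adjusted p = 0.00733) and by 0.19 (adjusted p = 0.0348), and the second of these calls was lost in 8 of 17 alternatives.

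Ndufs4, an accessory subunit needed to join the flavin end to the rest of the arm, was the only member of the arm that rose. Its values were 8.34, 8.59 and 8.54 in control and 8.80, 8.84 and 8.72 in ShSuz12, a rise of 0.30 (SE 0.08, adjusted p = 0.0178 from limma). All ShSuz12 arrays lay above all control arrays. The call was lost in 4 of 16 alternatives: the methods' t-test, subtraction of the array median, and leaving out ShSuz12 replicate 1 (adjusted p = 0.0535) or 2 (adjusted p = 0.0633).

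Ndufa7 shows how far a gene's probe sets can differ. Its dim probe set had 6.35, 6.03 and 6.22 in control and 5.88, 5.62 and 5.83 in ShSuz12 and fell by 0.42 (adjusted p = 0.0131 from limma), while its bright one had 11.07, 11.05 and 11.06 against 11.03, 11.02 and 11.02, a difference of -0.04 (adjusted p = 0.558). Ndufa6, Ndufa9, Ndufa12 and Ndufs6 were not called, with differences of -0.02 to 0.04.

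The membrane arm, which holds the nuclear-encoded accessory subunits around the mitochondrially encoded proton channels, was nearly flat. Of its 18 probe sets, 17 changed by less than 0.2 and 17 lay above the 90th percentile. Ndufb10 had 10.87, 10.81 and 10.84 in control and 10.65, 10.59 and 10.61 in ShSuz12 and fell by 0.22 (adjusted p = 0.0107 from limma), except after cyclic loess, where the call was lost. Ndufb7 had 11.48, 11.58 and 11.51 in control and 11.67, 11.71 and 11.67 in ShSuz12 and rose by 0.16 (adjusted p = 0.0483). The rise of Ndufb7 is a marginal call, which was lost in 7 of 17 alternatives, leaving out any array but control replicate 2 among them. Ndufab1, the acyl carrier protein found in both arms, had a difference of -0.11 (adjusted p = 0.159).

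The assembly factors of complex I with an Ndufaf symbol are needed to build the complex but are absent from its finished form. They had the highest share of falls among the parts of the chain with over 1 probe set. All 7 of their probe sets (6 genes) had non-overlapping groups with ShSuz12 below, 5 were called lower and the median was -0.34. Among all probe sets between the 50th and 90th percentiles, where most of these factors lie, 3774 of 12415 were lower. In that range 39.7% of all probe sets had every ShSuz12 array below every control array. The count of lower calls was 5 to 7 of 7 under the alternatives that tested them all, and 4 of 5 above the 60th percentile. Listed factors of complex I with other names, which the rule does not hold, were more mixed. Ecsit, Tmem126a, Dmac2 and Lyrm2 were lower and Tmem126b was higher. Acad9, Timmdc1, Foxred1, Nubpl, Tmem186 and Dmac1 were not called.

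Ndufaf8, which acts with Ndufaf5 in the modification of Ndufs7, had 9.09, 9.18 and 9.17 in control and 8.75, 8.71 and 8.73 in ShSuz12. It fell by 25.2%, a log2 fold change of -0.42 (SE 0.05, adjusted p = 5.71e-04 from limma), with the 3 ShSuz12 arrays close together. Ndufaf5 had 7.78, 7.87 and 7.87 against 7.60, 7.45 and 7.61 and fell by 0.29 (adjusted p = 0.00904). Ndufaf7, a methyltransferase needed for complex I assembly, had 8.06, 8.15 and 8.02 against 7.77, 7.60 and 7.79 and fell by 0.36 (adjusted p = 0.00516), and its second probe set fell by 0.34 (adjusted p = 0.00694).

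Ndufaf1, which serves the membrane arm, fell as well. Ndufaf1 had 5.96, 6.26 and 6.16 in control and 5.68, 5.65 and 5.79 in ShSuz12, and fell by 25.4% (adjusted p = 0.00569 from limma) at a dim probe set. Ndufaf3 and Ndufaf4, which work as a pair on an early peripheral intermediate, had differences of -0.15 each and missed the threshold (adjusted p = 0.0510 and 0.136). All 5 of the called probe sets were called under every alternative that tested them.

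**Figure D2:**
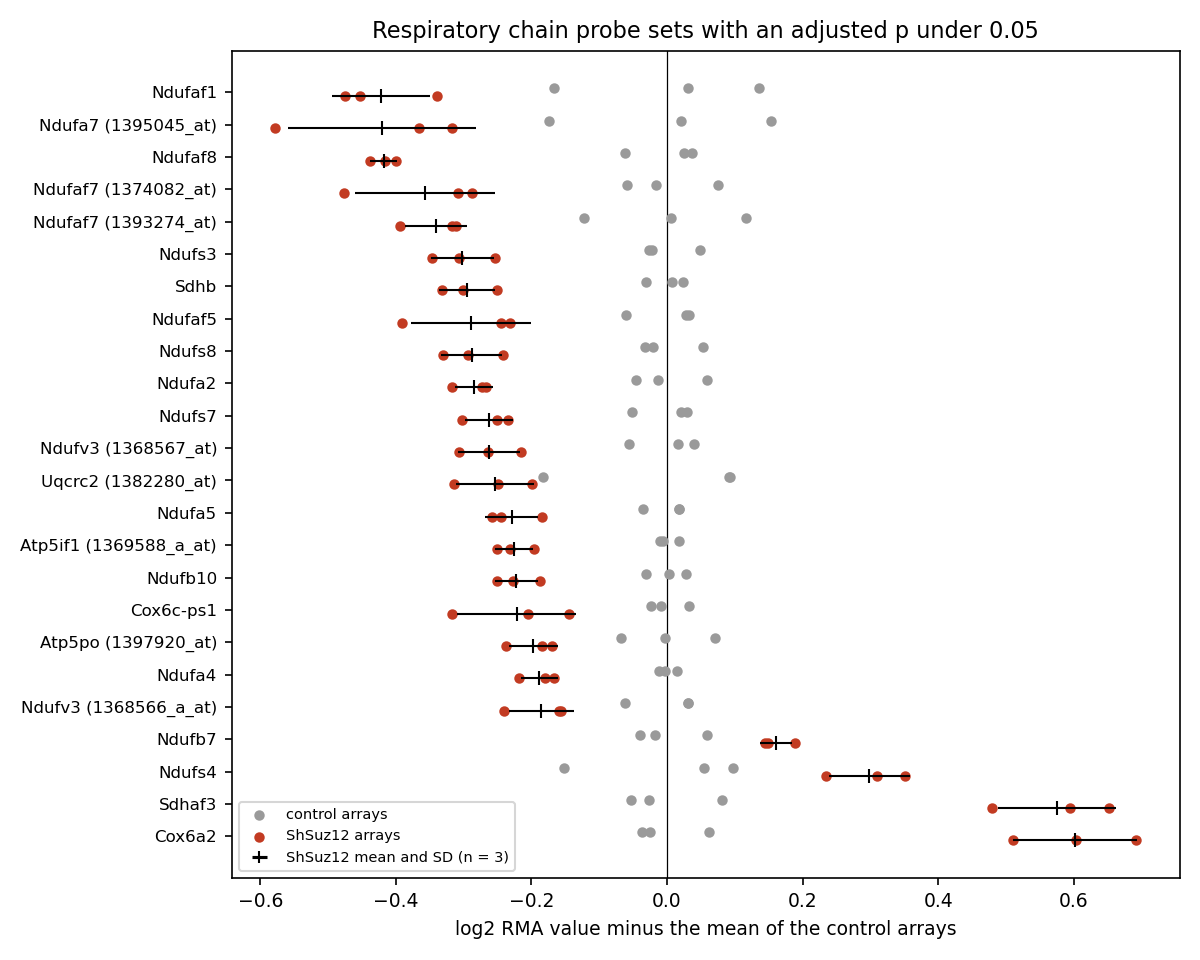
Log2 RMA value of each array minus the control mean for the 24 probe sets with an adjusted p under 0.05, ordered by change, with the mean and SD of the 3 ShSuz12 arrays; genes with over 1 probe set carry the probe set's name. The groups overlap in none, and Sdhaf3 and Cox6a2 stand furthest to the right.

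Complex II oxidises succinate in the citric acid cycle and has no mitochondrially encoded subunit. Its 10 probe sets held 1 lower and 1 higher call, against 19.5% lower and 14.8% higher among all probe sets. Sdhb, the iron-sulfur subunit of its catalytic head, had 10.45, 10.49 and 10.51 in control and 10.23, 10.18 and 10.15 in ShSuz12. It fell by 18.5%, a log2 fold change of -0.29 (SE 0.05, adjusted p = 0.00303 from limma) and was called under all 17 alternatives. Sdha, the flavin subunit that binds succinate, had a difference of -0.09 (-0.21 to 0.02, adjusted p = 0.195). The membrane anchor was not called: Sdhc had 0.08 (adjusted p = 0.251) and the probe sets of Sdhd had -0.07 and -0.02.

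Sdhaf3, a factor that helps to mature the iron-sulfur subunit Sdhb, went the other way from Sdhb. Its values were 7.21, 7.32 and 7.18 in control and 7.89, 7.83 and 7.72 in ShSuz12. It rose by 0.58 or 49.0% (SE 0.07, adjusted p = 3.40e-04 from limma), with every ShSuz12 array above every control array and a call under all 16 alternatives that tested it. The other factors of complex II, Sdhaf1, Sdhaf2 and Sdhaf4, had differences of -0.14 to 0.05 and were not called.

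In complex III 1 of 9 probe sets was lower, 8 of 9 had a negative sign and 9 of 9 lay above the 90th percentile. Of all 3095 probe sets above that percentile 37.7% were lower and 2082 had a negative sign. In 52.4% of them all ShSuz12 arrays lay below control. The subunits that carry the electrons were close to 0: Cyc1, cytochrome c1, had -0.06 (-0.20 to 0.08, adjusted p = 0.485) and Uqcrfs1, the Rieske iron-sulfur protein, had -0.05 (-0.16 to 0.06, adjusted p = 0.490). Both changed sign after cyclic loess. The matrix-facing core proteins had 3 probe sets, all with ShSuz12 below control and 1 called. Uqcrc1 had 11.12, 11.10 and 10.98 against 10.92, 10.92 and 10.87, a difference of -0.16 (adjusted p = 0.0655). Uqcrc2 was called at its dimmer probe set, with 10.22, 9.95 and 10.23 against 9.93, 9.88 and 9.82 (-0.25, adjusted p = 0.0491), and not at its brighter one (-0.08, adjusted p = 0.276). The call at the dimmer probe set was lost in 10 of 16 alternatives, including without any array but control replicate 2.

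Complex IV, cytochrome c oxidase, contains several subunits that exist as a common and a tissue-restricted isoform. Of the 10 common isoforms 1 was lower, and their median was 0.01, which turned to -0.09 with the array median subtracted. Above the 90th percentile of the control arrays, where 9 of the 10 lay, 37.7% of all probe sets were lower and their median was -0.10. Cox4i1 had 12.80, 12.77 and 12.80 in control and 12.81, 12.81 and 12.83 in ShSuz12, a difference of 0.03 with an interval of -0.08 to 0.14. Cox6a1 had -0.00 (-0.12 to 0.12), Cox6b1 0.04 and Cox8a 0.06, none of them called. Cox5a, at a probe set near the middle of the array, had -0.09 (-0.27 to 0.09, adjusted p = 0.413).

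The exception was Ndufa4, named for complex I but a subunit of complex IV. It had 12.24, 12.23 and 12.26 in control and 12.06, 12.03 and 12.08 in ShSuz12, so that the groups were narrow and apart, and fell by 12.2% (SE 0.05, adjusted p = 0.0192 from limma). The call was lost in 5 of 17 alternatives, among them cyclic loess and leaving out control replicate 3 or ShSuz12 replicate 1 or 2. Its paralog Ndufa4l2, known as a hypoxia-induced gene, had 5.82, 5.90 and 5.97 against 6.19, 6.06 and 6.00, a difference of 0.19 (adjusted p = 0.0721).

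Cox6a2, the isoform of Cox6a typical of heart and skeletal muscle, showed the largest rise of the chain. It had 5.06, 5.15 and 5.05 in control and 5.78, 5.69 and 5.60 in ShSuz12, a rise of 0.60 or 51.7% (SE 0.06, adjusted p = 2.27e-04 from limma). The groups were well apart, and the call was kept under all 15 alternatives that tested it. Its probe set lay at percentile 36.0 of the control arrays and thus in the dim range. The other tissue-restricted isoforms, all 5 also below the 50th percentile, were not called. Cox4i2, known from lung and hypoxic cells, had 4.75, 4.54 and 4.49 against 4.38, 4.43 and 4.15 (-0.27, adjusted p = 0.0608), and Cox7a1, another muscle isoform, had -0.19 (adjusted p = 0.189). Cox8b had 0.05, Cox7b2 0.17 and Cox6b2 -0.07. Of the 8 markers of muscle fibres, 2 rose in ShSuz12, Myh1 by 0.47 and Tnnt3 by 0.16. The call of Tnnt3 was lost in 9 of 12 alternatives, including without any array but control replicate 2. In control 7 of the 8 lay below the 50th percentile, and Myh1, with a mean of 9.92, lay above it. The part of these markers in the rise of Cox6a2 was not tested.

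**Figure D3:**
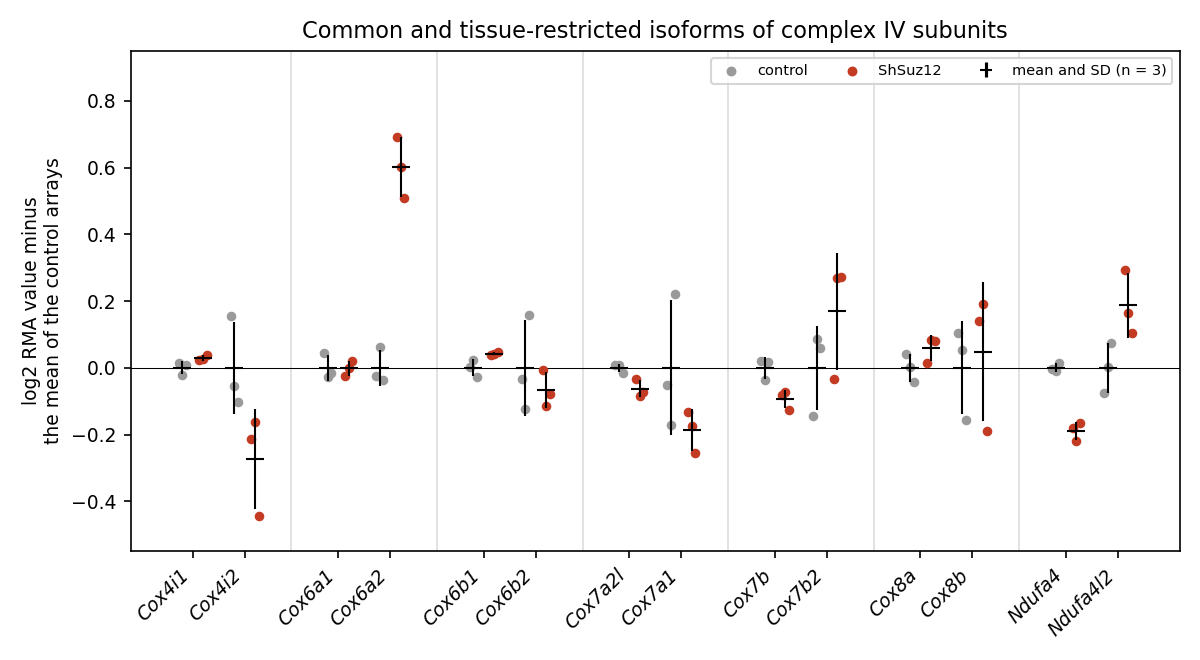
Log2 RMA value of each array minus the control mean of its probe set for common (left of each pair) and tissue-restricted or paralogous (right) complex IV genes, with mean and SD (n = 3). Cox7a2l, a supercomplex factor, stands beside Cox7a1 because no probe set carried Cox7a2 alone; only Cox6a2 and Ndufa4 were called.

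Cox7a2l, a factor that joins complexes III and IV into supercomplexes, had a difference of -0.06 (adjusted p = 0.368). Cox6c-ps1, annotated as a pseudogene, fell by 0.22 (adjusted p = 0.0235 from limma), while Cox6c had 0.03 (adjusted p = 0.754). Probes of a pseudogene can share sequence with its parent, so the signal cannot be assigned with certainty, and the call was lost in 6 of 14 alternatives.

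Complex V showed small differences, most of them negative, and few calls. Of its 20 probe sets 17 had a negative sign, 12 had all ShSuz12 arrays below control and 2 were called lower, with a median of -0.09. Above the 90th percentile of the control arrays, where 15 of the 20 lie, 2082 of all 3095 probe sets had a negative sign. At that level 52.4% had all ShSuz12 arrays below control and 37.7% were lower. The share of complex V with all ShSuz12 arrays below (60%) was near that background, and the share called lower (10%) was below it. All 5 probe sets of the catalytic head had a negative sign and none was called: Atp5f1a had -0.13 (-0.24 to -0.01, adjusted p = 0.0881), Atp5f1b -0.11 (adjusted p = 0.170) and Atp5f1c, the rotating central shaft, -0.15 (-0.27 to -0.03, adjusted p = 0.0554). With the array median subtracted 12 of the 17 probe sets of complex V subunits were called lower, and after cyclic loess 0 were lower and 1 was higher. Atp5mc3, an isoform of the proton-carrying c ring, had 0.07 (adjusted p = 0.330).

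Atp5if1, the inhibitor that stops the synthase from running in reverse, was called at the brightest of its 3 probe sets. It had 10.08, 10.05 and 10.05 in control and 9.83, 9.81 and 9.86 in ShSuz12 and fell by 14.5%, a log2 fold change of -0.23 (SE 0.05, adjusted p = 0.00869 from limma), a call lost only after cyclic loess (adjusted p = 0.0726) among 17 alternatives. Its dim probe sets had -0.23 and -0.19 (adjusted p = 0.150 and 0.124). Atp5po, a subunit of the peripheral stalk, fell by 0.20 at a dim probe set (adjusted p = 0.0302) and had 0.10 at the bright one (adjusted p = 0.153). The fall at the dim probe set was lost in 9 of 14 alternatives, so the probe sets of Atp5po give no common direction.

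Related mitochondrial genes were taken from lists, with the brightest probe set standing for a gene. Among 41 of 45 assembly factors that the rule does not hold, 15 were lower (36.6%) and 2 higher, with a median of -0.12. Of these 41 genes 8 lay above the 90th percentile and 3 below the 50th; among all probe sets 37.7% were lower above the 90th percentile and 30.4% between the 50th and the 90th, so the shares of lower calls in this list and in those below for ubiquinone and biogenesis were near the background at such levels. Cox19, a copper-handling factor for complex IV, fell by 0.68 (adjusted p = 1.50e-04 from limma) and Bcs1l, which inserts the Rieske protein into complex III, fell by 0.55 (adjusted p = 1.57e-04), although Uqcrfs1 itself was not called. The rises were those of Tmem126b (0.27) and Ttc19 (0.18), and both calls were lost when the array median was subtracted and without ShSuz12 replicate 1 or 3. The count of lower calls was 12 after cyclic loess and 25 with the array median subtracted.

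**Figure D4:**
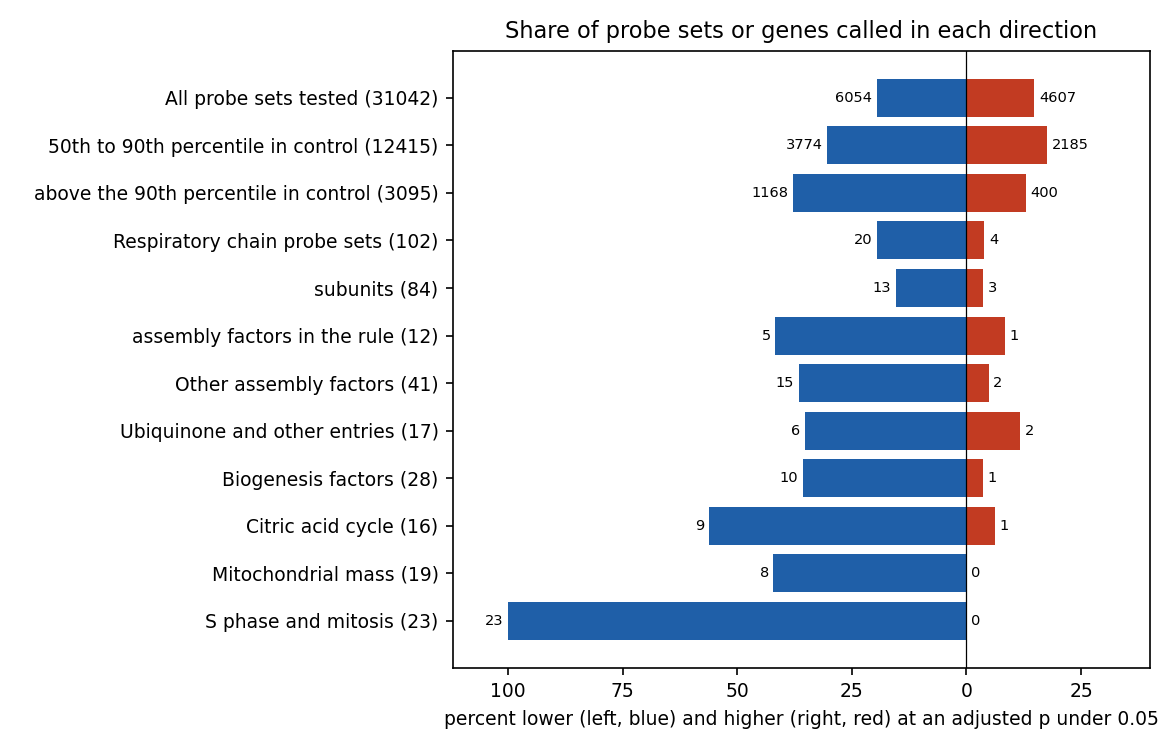
Percent of probe sets or genes (number tested in parentheses, number called beside the bars) that were lower (left) or higher (right) in ShSuz12 at an adjusted p under 0.05. The upper bars give all probe sets, and those by level in control. Subunits of the chain have a smaller share of lower calls (13 of 84) than the other mitochondrial lists plotted, and all 23 S phase and mitosis genes are lower; no difference between lists was tested.

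Ubiquinone, which collects the electrons, is made in the mitochondrion and is also reduced by enzymes outside the chain. Of 17 measured genes for ubiquinone synthesis, for other entries to ubiquinone and for cytochrome c heme lyase (Hccs), 6 were lower (35.3%) and 2 higher, with 10 lower when the array median was subtracted. Cytochrome c itself was on that list but was not analysed here. Coq3 and Dhodh fell by 0.44 each, while Etfb, a subunit of the electron transfer flavoprotein, rose by 0.50 and Gpd2, the mitochondrial glycerol phosphate dehydrogenase, rose by 0.44. These 4 calls held under every alternative that tested them. In the citric acid cycle 9 of 16 genes were lower (56.2%) and 1 was higher, with a median of -0.21. Of the 16, 12 lay above the 90th percentile. Among all probe sets at that level 37.7% were lower and 12.9% higher, with a median of -0.10. The difference from that background was not tested. Dlst, a subunit of the oxoglutarate dehydrogenase complex, fell by 0.73 and Cs, citrate synthase, fell by 0.29 (adjusted p = 0.0118 from limma), while Sucla2, a subunit of succinate-CoA ligase, rose by 0.22. The number of lower calls in the cycle was 5 after cyclic loess, and the rise of Sucla2 was not called without control replicate 1 or ShSuz12 replicate 1 or 2.

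Transcripts of the mitochondrial genome were represented by COX1 and COX2, the catalytic subunits of complex IV, out of 13 genes. COX1 had 14.21, 14.18 and 14.22 in control and 14.29, 14.29 and 14.33 in ShSuz12 (0.10, adjusted p = 0.156), and COX2 had 14.06, 14.03 and 14.08 against 14.23, 14.24 and 14.23, a rise of 0.17 (adjusted p = 0.0248 from limma). Both lay among the brightest probe sets of the array, and whether their probes were saturated was not tested. The call of COX2 was lost in 8 of 15 alternatives, scaling by the array median among them. Tfam packages the mitochondrial genome and acts in the initiation of its transcription. It had 10.01, 10.03 and 9.93 in control against 9.24, 9.15 and 9.24 in ShSuz12 and fell by 0.78 (adjusted p = 2.76e-05 from limma).

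Tfam belonged to a list of 28 measured regulators of mitochondrial biogenesis, of which 10 were lower (35.7%) and 1 was higher, with a median of -0.16; lower calls were 6 after cyclic loess or without ShSuz12 replicate 2 and 16 with the array median subtracted. Myc fell by 0.84 and Tfb2m, which acts with Tfam in transcription initiation, fell by 0.39. Esrra, the estrogen-related receptor alpha, rose by 0.28. Of the factors whose motifs were searched, Gabpa fell by 0.26 (adjusted p = 0.0186 from limma), Nrf1 had 0.16 (adjusted p = 0.164) and Yy1 had -0.07 (adjusted p = 0.349). Ppargc1a, the coactivator of oxidative genes, was dim with a difference of 0.19 (adjusted p = 0.104). Among 19 genes for import, folding and shape of mitochondria 8 were lower (42.1%, near the 37.7% of all bright probe sets) and 0 higher, 1 of 19 with a positive sign, and lower calls were 3 after cyclic loess, 4 without ShSuz12 replicate 1 or 3 and 16 with the array median subtracted. Dnm1l, the fission GTPase, fell by 0.44, Tomm40, the import pore, fell by 0.40, and Vdac1, the outer membrane porin, had -0.16 (adjusted p = 0.110).

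The promoter windows of the chain were unlike those of the whole table in base composition and motifs. Their median GC content was 56.0% against 51.7% for all 33469 windows, with a median of 20 CpG dinucleotides against 7. The NRF1 letters stood in 32.9% of the 82 windows and in 7.6% of all, the ETS letters in 30.5% and 8.75%, the YY1 letters in 24.4% and 3.01%, and the ERR letters in 2.44% and 0.433%. At least 1 of the first 3 motifs was found in 54 of 82 windows (65.9%) and in 16.8% of all. These are descriptions of letters in windows of different base composition, and matches of different motifs overlapped in 0 of the 82.

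The windows were also grouped by change. At least 1 of the NRF1, ETS and YY1 motifs stood in 13 of 17 windows of genes with a lower call (76.5%) and in 38 of 61 windows of genes with none (62.3%), a difference that was not tested. By place in complex I, YY1 letters were found in 8 of 15 windows of the peripheral arm and in 3 of 16 of the membrane arm. The 8 belong to Ndufa2, Ndufa6, Ndufa7, Ndufa9, Ndufs1, Ndufs4, Ndufs6 and Ndufs7, of which Ndufa2 and Ndufs7 fell, Ndufa7 fell at its dim probe set alone, Ndufs4 rose and 4 were not called. The match began after the annotated start in 7 of these 8, in 15 of all 20 member windows with it and in 47.8% of the 1008 windows with it in the table. The searched YY1 letters contain ATG, and whether matches lie at a translation start was not tested.

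**Figure D5:**
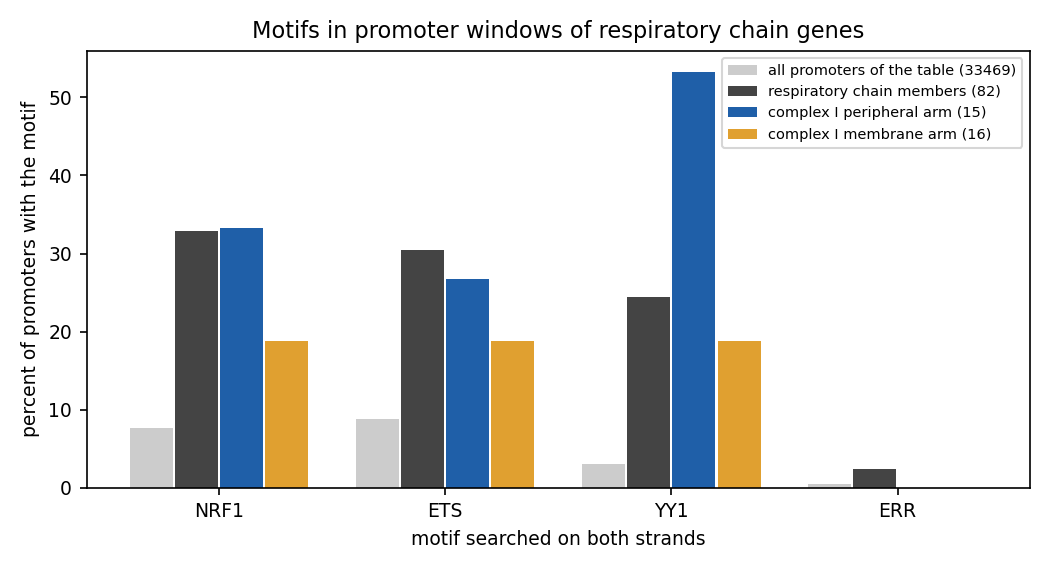
Percent of promoter windows with at least 1 match to each motif, on either strand, for all windows of the table, the chain, and the peripheral and membrane arms of complex I (number of windows in parentheses). The YY1 letters are found in 53.3% of peripheral arm windows and 18.8% of membrane arm windows.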

How the data were processed

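RNA from control and ShSuz12 IEC-6 cells (3 arrays each) was hybridized to Affymetrix rat arrays. The deposited log2 values were made by the authors with RMA in FlexArray, which corrects background, normalizes between arrays and summarizes probe sets. No scanner files or detection calls were used. After 57 control probe sets were left out, 31042 probe sets were fitted with limma 3.58.1 (lmFit, eBayes; R 4.3.3), two-sided, with Benjamini-Hochberg adjustment over all, and called at an adjusted p under 0.05. Precision is limited by the 3 arrays of each group, whose spread is that of experiments on 1 infected population. The script was tested on simulated data. An exact permutation test of 3 against 3 cannot give a p below 0.1 and was not used.

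Gene symbols came from the platform annotation (20826 probe sets with 1 symbol, 436 with several, 9780 not listed), and 0 symbols changed through the gene table of GRCr8. Members, lists and promoter motifs were chosen with earlier results of these data known. The NRF1 motif was shortened to the central 8 letters of a longer form after a first count. The genes to name were the 4 largest called rises and falls of each complex, the core subunits, the isoform pairs and the 2 largest called rises and falls of each list; further called members and the factors that bind the searched motifs, Cs, Tfb2m, Ppargc1a and Vdac1 were named after their values were seen. Replicate numbers did not pair the arrays, with correlations of deviations for equal numbers of 0.02, -0.04 and -0.06. Alternatives were the methods' t-test, filters at the 40th, 60th and 90th percentile, other scalings, eBayes with a trend and robust, the replicate block, gene-level values, the 2-fold limit and leaving out each array. Figures were drawn with matplotlib 3.10.9.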

Additional observations from a re-analysis of the deposited data

How the results depend on the processing

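The count of 20 lower probe sets became 58 with the array median subtracted, 13 after cyclic loess, 34 with an intensity trend and robust eBayes, 13 for subunits alone and 0 at 2-fold. The count of 4 higher became 2, 9, 8, 3 and 0 in the same order, and 7 with the methods' t-test. Leaving out 1 array gave 15 to 20 lower and 2 to 4 higher, the 2 without ShSuz12 replicate 1 or 2. The median of -0.07 became -0.17 with the array median subtracted (all probe sets -0.15), -0.038 after a second quantile normalization (all -0.06) and 0.010 after cyclic loess (all -0.00), and lay between -0.08 and -0.06 without 1 array. The sign of the chain's median and of small differences thus rests on the scaling; the cause was not tested. With the replicate number as a block, 17 were lower and 3 higher, but the numbers do not pair the arrays: no array correlated best with its own number. Of the 24 called probe sets 13 were called under every alternative that tested them, 11 of them lower and 2 higher.

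No called probe set changed sign. Over 44 probe sets named in the text, 600 of 709 comparisons kept sign and side of the threshold, 53 lost it, 39 gained it and 17 changed sign. The sign changed with the array median subtracted for Cox4i1 (-0.071), Cox6b1 (-0.058), Cox8a (-0.042), Cox8b (-0.053) and Atp5mc3 (-0.031), after cyclic loess for Ndufs1 (0.050), Cyc1 (0.023), Uqcrfs1 (0.026), Cox6a1 (0.071) and Cox7a2l (0.016), and after a second quantile normalization for Ndufs1 (0.015) and Cox6a1 (0.044). Without 1 array Cox6a1 ranged from -0.016 to 0.020, Cox6b2 from -0.13 to 0.013 and Cox8b from -0.031 to 0.17. Only 3 arrays a group, and no detection calls, limit what can be said of dim members.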
